A study of Homo sapiens with 23 samples.

Results

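Double-stranded RNA sensors and effectors are the proteins with which a human cell detects long or unmodified double-stranded RNA and answers it. The set held 9 genes given by symbol: the receptors *IFIH1* (which encodes MDA5), *RIGI* (*DDX58* in older annotation), *DHX58* (LGP2) and *TLR3*, the adaptor *MAVS*, and the effectors *EIF2AK2* (PKR), *OAS1*, *OAS2* and *OAS3*. They were 9 of the 61806 genes counted in 17 libraries and of the 42901 genes counted in a further 6 libraries sequenced more deeply. All 9 were found in both tables. The rule names the genes and sets no threshold on their values, but they were listed with earlier results of these data known.

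All 23 libraries came from A549, an established human lung adenocarcinoma cell line, and total RNA was freed of rRNA before strand-specific libraries were made from it. *THUMPD3*, which encodes a tRNA methyltransferase, was depleted by transient transfection of an siRNA (group siD3 #3, 3 libraries) or by either of 2 shRNAs (shD3 #1 and shD3 #4, 3 libraries each). Each knockdown had control libraries, labelled as wild type: siControl (2 libraries), sh1Control (3) and sh4Control (3). The deep libraries held shD3 #1 and sh1Control (3 each). The shRNAs were carried on a lentiviral pLKO-Tet-On vector in puromycin-selected cells and were induced with doxycycline, whereas the siRNA was transfected, and the siRNA cells were harvested on day 5 and the shRNA cells on day 6. The delivery, the inducer, the harvest day and the target sequence cannot be told apart between the siRNA and the shRNA libraries. The extent of the *THUMPD3* depletion, given below, also differed between them and cannot be told apart from these. The study's methods call the controls of each knockdown untreated. Which construct the shRNA controls carried and whether they received doxycycline was not given in the sources used here, nor was the harvest day of the deep libraries. The replicates are labelled as biological.

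As background, MDA5 and RIG-I are cytosolic helicases that bind double-stranded RNA, MDA5 preferring long duplexes and RIG-I short ends that carry a 5′ triphosphate. Both pass the signal to MAVS on the outer mitochondrial membrane, which leads to interferon and cytokine transcription, and LGP2 tunes the pair. TLR3 is a transmembrane receptor that detects double-stranded RNA inside endosomes. PKR phosphorylates eIF2α and so slows translation, and the OAS enzymes make 2′-5′ oligoadenylate, a second messenger. Most genes of the set are themselves induced by interferon, through the interferon-stimulated response element (ISRE), and A549 cells are widely used to study these pathways.

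The start sites of the genes are shown because the repeat that interferon-activated factors read lies there in several of them. The RefSeq promoter table of GRCh38.p14 held 7 of the 9 genes, with 250 bases before the start site and 50 from it on (*DHX58* and *OAS2* were not in the table). The ISRE core (GAAA, any 2 bases, GAAA), searched on both strands, was present in *IFIH1*, *TLR3*, *EIF2AK2* and *OAS3*, and in 3.57% of all 35116 promoters of that length. The shorter repeat (GAAA, any 1 base, GAAA), searched after the sequences had been seen, was present in *RIGI*, *OAS1* and *OAS3* and in 3.12% of promoters. Each line below runs 5′ to 3′ on the strand of the gene. It begins with the distance from the first base of its first capitalised match to the start site. The matches of *TLR3* and *EIF2AK2* span the start site. Capitals mark every match to either repeat.
*IFIH1*, 159 bases upstream, 2 overlapping ISRE cores, chr2:162318809-162318868, minus strand: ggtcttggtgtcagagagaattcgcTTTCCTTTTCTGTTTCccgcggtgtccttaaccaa
*IFIH1*, 21 bases upstream, ISRE core, chr2:162318673-162318730, minus strand: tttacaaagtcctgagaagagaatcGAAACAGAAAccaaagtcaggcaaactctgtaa
*RIGI*, 203 bases upstream, shorter repeat, chr9:32526365-32526424, minus strand: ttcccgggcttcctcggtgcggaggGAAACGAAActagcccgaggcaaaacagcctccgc
*TLR3*, 4 bases upstream, ISRE core, chr4:186069127-186069167, plus strand: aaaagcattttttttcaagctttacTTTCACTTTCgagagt
*EIF2AK2*, 6 bases upstream, ISRE core, chr2:37156969-37157011, minus strand: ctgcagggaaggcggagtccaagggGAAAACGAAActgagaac
*OAS1*, 17 bases upstream, shorter repeat, chr12:112906920-112906973, plus strand: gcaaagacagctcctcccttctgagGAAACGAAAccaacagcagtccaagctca
*OAS3*, 148 bases upstream, a shorter repeat overlapping an ISRE core, chr12:112938301-112938360, plus strand: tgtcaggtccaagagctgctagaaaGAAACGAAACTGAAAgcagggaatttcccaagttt
*OAS3*, 12 bases upstream, ISRE core, chr12:112938437-112938485, plus strand: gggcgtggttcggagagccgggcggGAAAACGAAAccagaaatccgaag

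No match to either repeat was found in the *MAVS* window. The GAS motif TTCNNNGAA, an interferon gamma-activated sequence that reads the same on both strands, was found at 2 places in *TLR3* and at 1 place in *OAS1*, and in 7.66% of all promoters. A match is a description of the letters and was not tested as a binding site. *OAS1*, *OAS3* and *OAS2* are neighbours in that order on the plus strand of chromosome 12, where GENCODE 44 places them from base 112905856, 112938051 and 112978395 on.

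Total counts ranged from 9854294 to 22101059 in the first 17 libraries and from 27285889 to 59974740 in the deep ones. Levels are given as counts per 1000000 after TMM normalisation (cpm). *THUMPD3* checked the labels: relative to its own control, its mean level was 16.7% in siD3 #3, 50.7% in shD3 #1, 31.2% in shD3 #4 and 48.7% in deep shD3 #1. The lowest *THUMPD3* level in a control (53.2 cpm) stood above the highest in a knockdown (31.4 cpm). The 6 epithelial marker genes summed to at least 2379 cpm in every library. Their sum was higher in shD3 #1 (5385 to 5519 cpm) than in sh1Control (4441 to 4721 cpm), as in the deep libraries (5267 to 5428 against 3730 to 4399 cpm). It was lower in shD3 #4 (3956 to 4296 cpm) than in sh4Control (5050 to 5326 cpm), and it overlapped between siD3 #3 (2379 to 5025 cpm) and siControl (3562 to 4735 cpm). *KRT8* and *KRT18* made up most of this sum, at medians of 2266 and 2191 cpm in the first libraries. *CDH1* came next at 112 cpm, so the sum does not describe the other markers. The lowest *CDH1* level was in an shD3 #1 library both in the first libraries (38.0 cpm) and in the deep ones (77.8 cpm). Of the 6 immune markers, *PTPRC* had at most 4 counts and *CD3E* at most 1 in any library. In the first libraries the list summed to less in shD3 #1 (2.49 to 3.37 cpm) than in sh1Control (3.68 to 4.68 cpm). The sums overlapped between siD3 #3 (2.94 to 4.11 cpm) and siControl (3.07 to 3.10 cpm). They also overlapped between shD3 #4 (3.25 to 5.11 cpm) and sh4Control (2.63 to 3.30 cpm). In the deep libraries *CD68* had 2462 to 3474 counts, against 0 to 4 in the first. There the immune list summed to 52.9 to 54.9 cpm in sh1Control and 94.5 to 102 cpm in shD3 #1. The sum of the 6 fibroblast markers was higher in each knockdown than in its control. It was 4.77 to 6.198 in the control and then 8.14 to 10.0 cpm for siD3 #3, 7.08 to 8.92 and 10.7 to 12.2 cpm for shD3 #1, 6.23 to 9.68 and 10.8 to 13.9 cpm for shD3 #4, and 10.5 to 11.5 and 27.4 to 29.7 cpm in the deep libraries. *DCN* had at most 1 count in any library. The 4 endothelial markers summed to 0.141 to 0.341 cpm in siControl and 1.75 to 2.18 cpm in siD3 #3, and to 0.419 to 0.483 cpm in sh4Control and 1.10 to 1.71 cpm in shD3 #4. They overlapped between sh1Control (0.358 to 1.02 cpm) and shD3 #1 (0.389 to 0.467 cpm) and between the deep groups (0.530 to 0.720 and 0.713 to 1.37 cpm). The part of these levels in the results below was not tested.

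In control cells *MAVS*, *EIF2AK2*, *OAS3* and *OAS1* were more abundant than the 4 receptors, and the effector *OAS2* was the least abundant of the set. Over the 8 control libraries of the first table the median level per kb of exon (exon union of GENCODE 44) was 16.7 cpm per kb for *MAVS*, 9.82 for *EIF2AK2*, 4.72 for *OAS3* and 3.31 for *OAS1*. It was 0.884 cpm per kb for *IFIH1*, 0.728 for *TLR3*, 0.168 for *RIGI*, 0.0622 for *DHX58* and 0.00791 for *OAS2*. The ranges of the control libraries overlapped between *OAS3* and *OAS1*, between *IFIH1* and *TLR3*, and between *DHX58* and *OAS2*, and every other pair of neighbours in this order was separated. *DHX58* had at most 15 counts and *OAS2* at most 38 counts in any of the first 17 libraries, against at least 53 for *IFIH1* and 23 for *TLR3*.

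**Figure D1:**
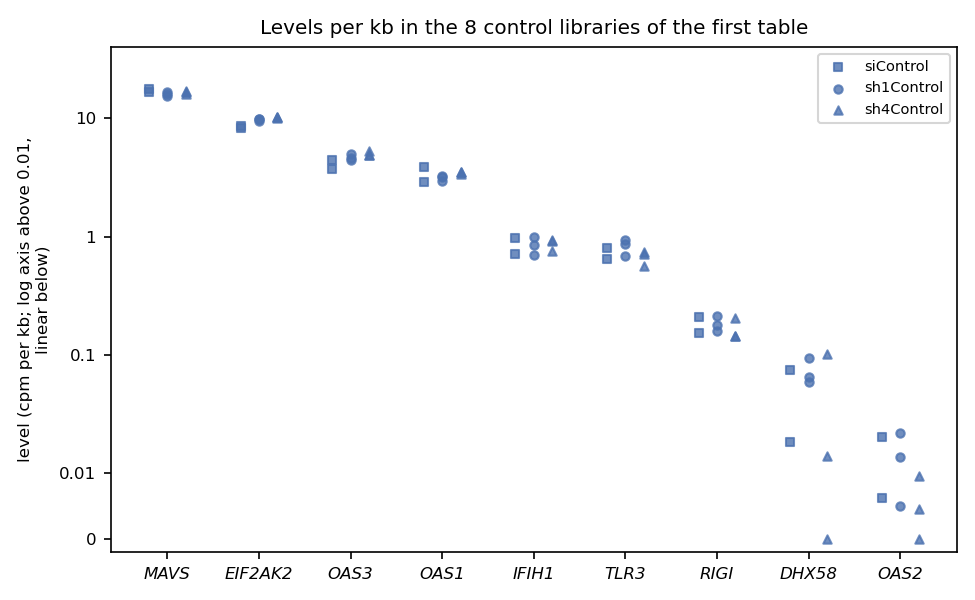
Level per kb of exon (cpm per kb, log axis above 0.01 and linear below it) of each gene in the 8 control libraries of the first table, with squares for siControl, circles for sh1Control and triangles for sh4Control. *MAVS* and *EIF2AK2* lie highest, at medians of 16.7 and 9.82 cpm per kb, and *DHX58* and *OAS2* reach 0 in 1 sh4Control library each.

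The place of *RIGI* in that order belongs to the first table alone. Its mean level in sh1Control was 1.90 cpm in the first table and 15.5 cpm in the deep one, 8.18 times as high, while for the other 8 genes the deep level was 0.579 (*OAS1*) to 1.46 (*MAVS*) times the first. The first table lists genes by Ensembl identifier and the deep one by symbol, so the annotations behind the counts may differ. In GENCODE 44 another protein-coding gene on the same strand, ENSG00000288684, shares 4471 bp with the exons of *RIGI*, or 43.2% of them, and it had 1 to 15 counts in the first libraries. The part of this overlap in the low first level was not tested, and *RIGI* is compared only within a table. *EIF2AK2* shares 35 bp of exon with *GPATCH11* on the opposite strand, and the 222 bp that *OAS1* shares with an antisense lncRNA held 0 counts for the latter.

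**Figure D2:**
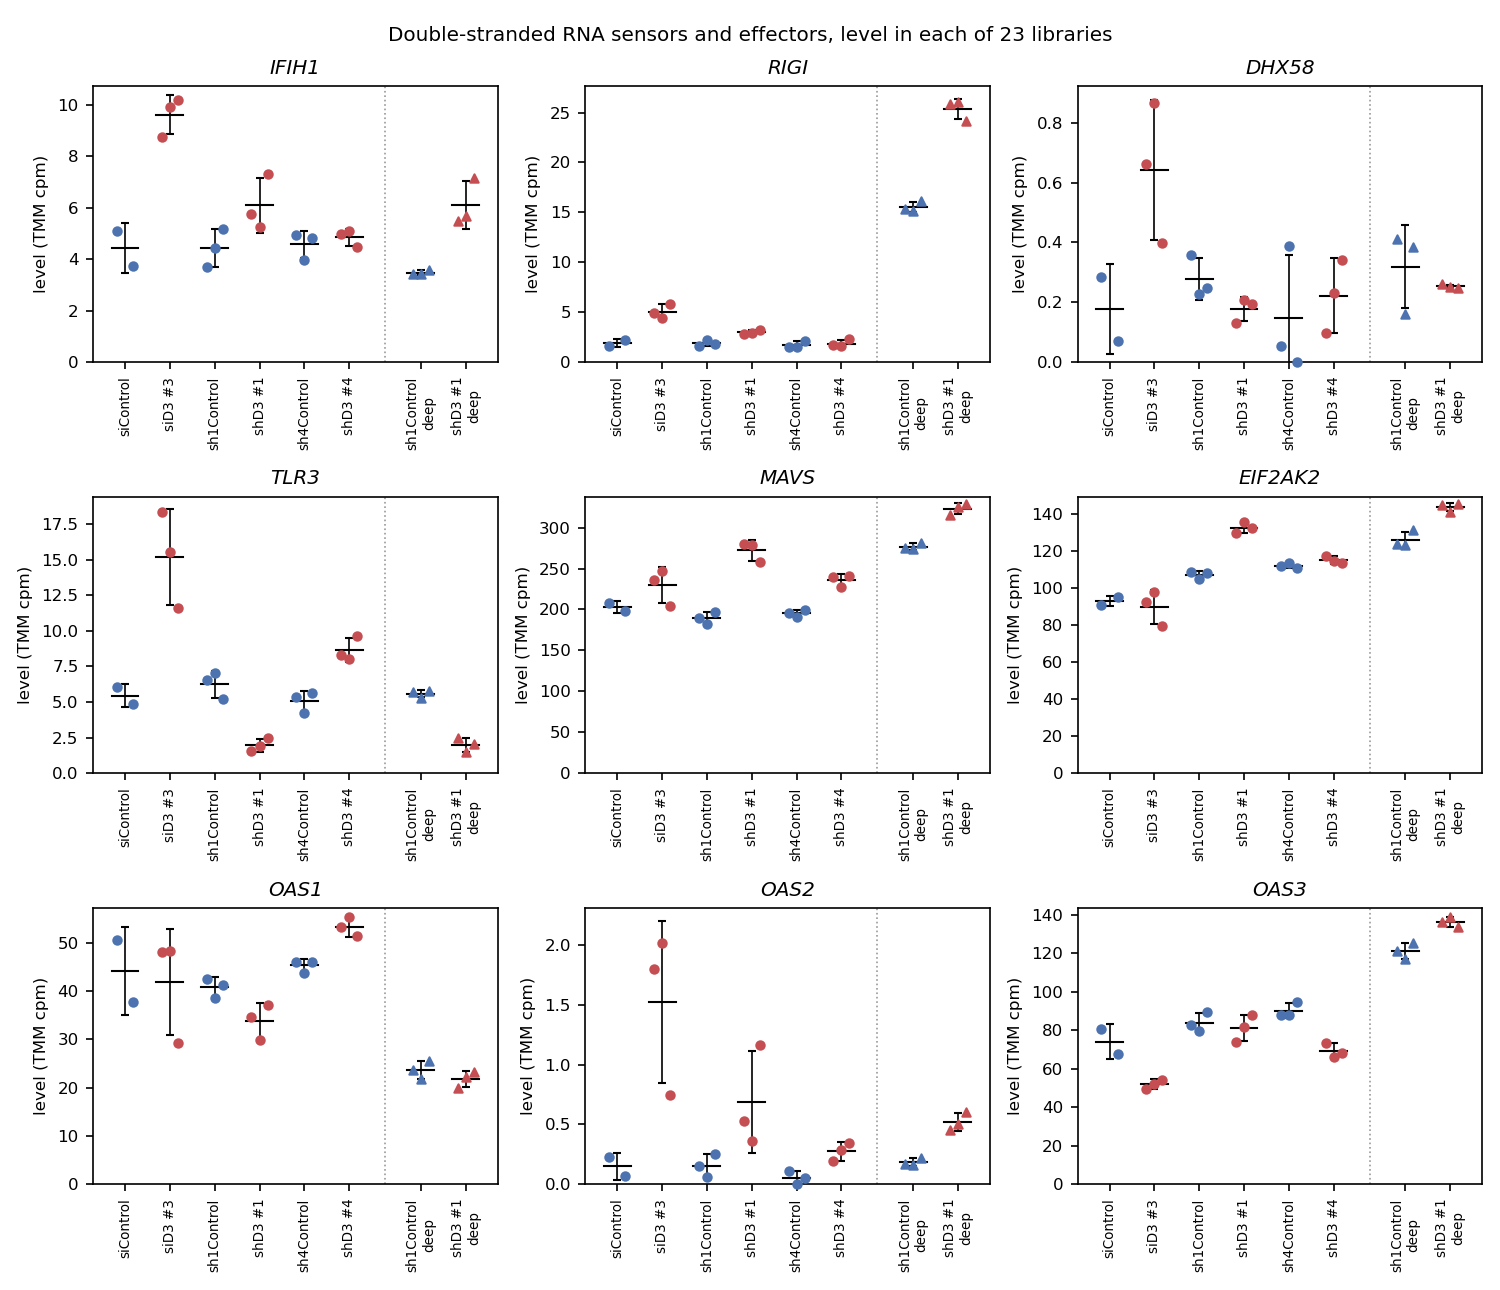
Level (TMM cpm, linear axes from 0) of each gene in all 23 libraries, with controls in blue and knockdowns in red, deep libraries as triangles right of the dotted line, bars at group means and whiskers of 1 SD. *TLR3* is lower than its control in both shD3 #1 sets and higher in shD3 #4 and siD3 #3. *RIGI* is 8.18 times as high in deep as in first sh1Control.

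Each knockdown was then compared with its own control. A gene was called when the edgeR quasi-likelihood test gave a Benjamini-Hochberg adjusted p under 0.05 over all genes tested and the fold change was at least 1.5 in either direction (the fold threshold). Under siD3 #3, 4 of the 9 genes rose and 0 fell, with 9 tested, where 12.5% of all 17032 genes tested were called higher and 9.42% lower. The 4 were *IFIH1*, *RIGI*, *TLR3* and *OAS2*, of which *OAS2* had 1 and 4 counts in siControl and passed the filter on low counts through siD3 #3, and its call was lost without siControl replicate 2. Under shD3 #1, 7 of the 9 passed the filter on low counts, 1 rose (*RIGI*) and 1 fell (*TLR3*), where 14.5% of 16456 genes were called higher and 14.6% lower. Under shD3 #4, 7 passed the filter and 1 rose (*TLR3*), where 8% of 16493 genes were called higher and 4.49% lower. All 9 passed in the deep libraries, where 3 rose (*IFIH1*, *RIGI* and *OAS2*) and 1 fell (*TLR3*), and 15% of 18763 genes were called higher and 14.1% lower. *DHX58* and *OAS2* were the genes that failed the filter in the first shRNA comparisons. In bulk RNA a change in the number of cells that express a gene and a change in its RNA per cell cannot be told apart.

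**Figure D3:**
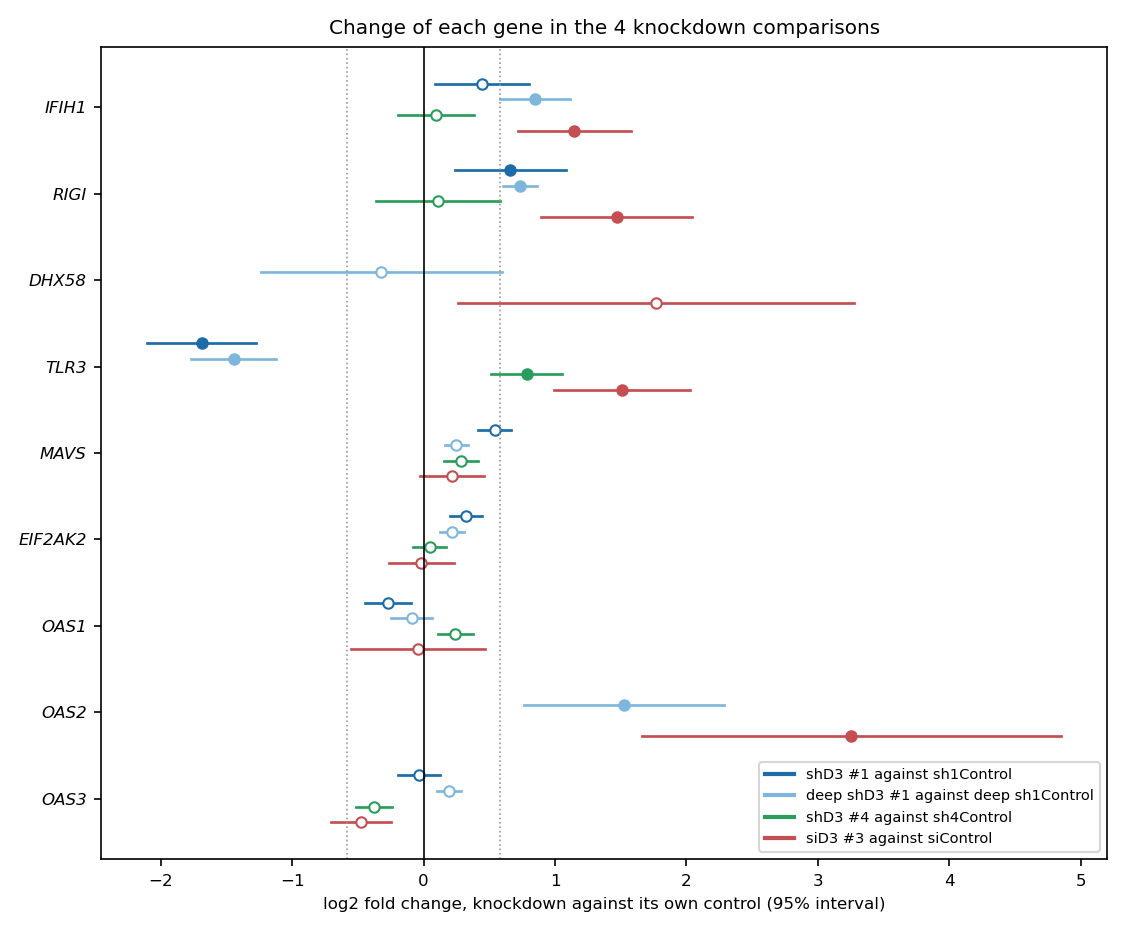
Log2 fold change (x axis, with the 95% interval of the edgeR fit as a line) of each gene in the 4 knockdown comparisons, filled where the gene was called and open where it was not, with dotted lines at the fold threshold. *TLR3* lies at -1.69 and -1.44 in the shD3 #1 comparisons and at 0.78 and 1.51 in the others. *MAVS*, *EIF2AK2*, *OAS1* and *OAS3* lie within the dotted lines throughout.

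*TLR3*, the endosomal receptor, moved in opposite directions. In sh1Control its level was 6.55, 7.02 and 5.18 cpm, and in shD3 #1 1.52, 1.92 and 2.43 cpm. The groups did not overlap, and every shD3 #1 library lay below 0.5 times its lowest control. The log2 fold change was -1.69 (SE 0.20, adjusted p = 2.13e-06). The deep libraries gave 5.71, 5.28 and 5.76 cpm in sh1Control and 2.47, 1.48 and 2.06 cpm in shD3 #1, a log2 fold change of -1.44 (SE 0.15, adjusted p = 1.06e-06). In these libraries, too, the groups were separate. In sh4Control its level was 5.32, 4.22 and 5.60 cpm and in shD3 #4 8.27, 8.03 and 9.60 cpm, a log2 fold change of 0.78 (SE 0.13, adjusted p = 2.56e-05). In siControl it was 6.02 and 4.86 cpm and in siD3 #3 18.4, 15.5 and 11.6 cpm, a log2 fold change of 1.51 (SE 0.22, adjusted p = 0.00196). All shD3 #4 and siD3 #3 libraries lay above all of their controls. The control means, 6.25, 5.05, 5.44 and 5.58 cpm for sh1Control, sh4Control, siControl and deep sh1Control, were close to each other.

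*IFIH1* encodes MDA5, the cytosolic receptor of long duplexes. Its level was 5.11 and 3.73 cpm in siControl and 8.75, 9.92 and 10.2 cpm in siD3 #3. These groups did not overlap, and the log2 fold change was 1.15 (SE 0.18, adjusted p = 0.0029). In the deep libraries it was 3.41, 3.40 and 3.58 cpm in sh1Control and 5.48, 5.66 and 7.16 cpm in shD3 #1, again without overlap, with a log2 fold change of 0.85 (SE 0.12, adjusted p = 3.22e-05). The first shD3 #1 libraries gave 5.76, 5.24 and 7.30 cpm against 3.68, 4.42 and 5.18 cpm. Their log2 fold change of 0.44 (SE 0.17) had an adjusted p of 0.035 but was under the fold threshold. In shD3 #4 the level was 4.97, 5.11 and 4.46 cpm against 4.94, 3.98 and 4.82 cpm in sh4Control. These groups overlapped, and the log2 fold change was 0.093 (95% interval -0.20 to 0.38, adjusted p = 0.633).

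*RIGI* encodes the receptor of short 5′ triphosphate ends. Its level was 1.59 and 2.18 cpm in siControl and 4.97, 4.38 and 5.83 cpm in siD3 #3, with a log2 fold change of 1.47 (SE 0.25, adjusted p = 0.00357). In sh1Control it was 1.64, 2.21 and 1.84 cpm and in shD3 #1 2.78, 2.96 and 3.21 cpm, with a log2 fold change of 0.66 (SE 0.20, adjusted p = 0.00943). No library of either control reached its knockdown group. Without sh1Control replicate 1 the latter value was 0.57 and lost the call on the fold threshold. The deep libraries gave 15.3, 15.1 and 16.1 cpm in sh1Control and 25.9, 26.1 and 24.2 cpm in shD3 #1, with a log2 fold change of 0.73 (SE 0.060, adjusted p = 8.05e-08). In shD3 #4 it was 1.67, 1.61 and 2.29 cpm against 1.503, 1.503 and 2.15 cpm in sh4Control, which overlapped, with a log2 fold change of 0.11 (95% interval -0.36 to 0.58, adjusted p = 0.732).

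*DHX58* encodes LGP2, which lacks the signalling domains of the other RIG-I-like receptors. It was read by few counts: 5 and 1 in siControl, 14, 15 and 8 in siD3 #3. Its level there was 0.662, 0.865 and 0.399 cpm, above the 0.284 and 0.0704 cpm of siControl in every library. The log2 fold change of 1.77 (95% interval 0.26 to 3.27) had an adjusted p of 0.0719 and was not called. *DHX58* passed the main filter on low counts through siD3 #3, so under that filter it could only be called higher. Without siControl replicate 1 the value was 3.07 (adjusted p = 0.105), and without siControl replicate 2 it was 1.19 (adjusted p = 0.317). With a filter of at least 1 count it was 1.74 (adjusted p = 0.0381), and without siD3 #3 replicate 3 it was 1.99 (adjusted p = 0.0214). *DHX58* had in the deep libraries 24, 8 and 21 counts in sh1Control and 8, 7 and 9 in shD3 #1, a log2 fold change of -0.32 (95% interval -1.24 to 0.60, adjusted p = 0.534). The shRNA libraries of the first table held 0 to 8 counts each, and neither shRNA was tested against its control there.

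*MAVS*, the mitochondrial adaptor, was the most abundant gene of the set and changed by less than the fold threshold in every comparison. Its level was 189, 182 and 197 cpm in sh1Control and 280, 279 and 258 cpm in shD3 #1, a log2 fold change of 0.54 (SE 0.058, adjusted p = 8.78e-07). In sh4Control it was 195, 191 and 199 cpm and in shD3 #4 240, 227 and 241 cpm, a log2 fold change of 0.28 (SE 0.063, adjusted p = 0.000723). The deep libraries gave 275, 274 and 281 cpm and then 316, 325 and 329 cpm, a log2 fold change of 0.25 (SE 0.040, adjusted p = 7.03e-05). In these 3 comparisons every knockdown library lay above its controls, and all 3 values were under the fold threshold. The size for shD3 #1 differed between the first libraries (95% interval 0.42 to 0.66) and the deep ones (0.16 to 0.34), without overlap of the intervals. In siControl it was 208 and 198 cpm and in siD3 #3 237, 248 and 205 cpm, which overlapped, with a log2 fold change of 0.21 (95% interval -0.028 to 0.46, adjusted p = 0.153).

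*EIF2AK2* encodes PKR, the kinase that slows translation. Its level was 109, 105 and 108 cpm in sh1Control and 130, 136 and 133 cpm in shD3 #1, a log2 fold change of 0.32 (SE 0.058, adjusted p = 0.000194). The deep libraries gave 124, 123 and 131 cpm and then 145, 141 and 145 cpm, a log2 fold change of 0.22 (SE 0.041, adjusted p = 0.000373). Both pairs of groups were separate, and both values were under the fold threshold. It was 112, 114 and 111 cpm in sh4Control and 118, 115 and 113 cpm in shD3 #4 (log2 fold change 0.045, 95% interval -0.080 to 0.17, adjusted p = 0.589). In siControl it was 91.1 and 95.1 cpm and in siD3 #3 92.4, 97.7 and 79.4 cpm (log2 fold change -0.018, 95% interval -0.26 to 0.23, adjusted p = 0.918). The latter 2 pairs of groups overlapped, and siD3 #3 replicate 3 was the lowest library of all.

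The 3 OAS genes, neighbours on chromosome 12, did not move together. *OAS2*, the least abundant, was called in siD3 #3 and in deep shD3 #1, where it passed the filter through the knockdown libraries. It had 4 and 1 counts in siControl and 38, 35 and 15 in siD3 #3, or 0.227 and 0.0704 cpm against 1.80, 2.02 and 0.748 cpm. The log2 fold change was 3.26 (SE 0.69, 95% interval 1.66 to 4.85, adjusted p = 0.00939) and rested on the 5 counts of siControl. Without siControl replicate 2 it was 2.74 and the adjusted p was 0.0735, and without siControl replicate 1 it was 4.31 (adjusted p = 0.0481). The deep libraries held 10, 8 and 12 counts in sh1Control and 14, 14 and 22 in shD3 #1, or 0.171, 0.159 and 0.219 cpm against 0.454, 0.505 and 0.604 cpm. These groups did not overlap, with a log2 fold change of 1.52 (SE 0.35, adjusted p = 0.00171). Neither first shRNA was tested against its control, and these libraries held 3, 1 and 5 counts in sh1Control, 8, 7 and 12 in shD3 #1, 2, 0 and 1 in sh4Control and 4, 5 and 6 in shD3 #4.

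*OAS1* was measured with at least 381 counts in every library. Its level was 42.6, 38.6 and 41.3 cpm in sh1Control and 34.5, 29.8 and 37.1 cpm in shD3 #1, a log2 fold change of -0.27 (SE 0.083, adjusted p = 0.0116). It was 46.1, 43.7 and 46.1 cpm in sh4Control and 53.2, 55.4 and 51.3 cpm in shD3 #4, a log2 fold change of 0.24 (SE 0.066, adjusted p = 0.00428). Neither pair of groups overlapped, the directions were opposite, and both values were under the fold threshold. In siControl it was 50.5 and 37.7 cpm and in siD3 #3 48.0, 48.3 and 29.3 cpm (log2 fold change -0.042, 95% interval -0.55 to 0.47, adjusted p = 0.903). In the deep libraries it was 23.6, 21.8 and 25.5 cpm and then 19.9, 22.3 and 23.2 cpm (log2 fold change -0.092, 95% interval -0.25 to 0.065, adjusted p = 0.291).

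*OAS3*, which had the highest median level per kb of the 3 OAS genes in control cells, had values below its control under siD3 #3 and shD3 #4. Its level was 80.5 and 67.7 cpm in siControl and 49.4, 52.0 and 54.4 cpm in siD3 #3, a log2 fold change of -0.48 (SE 0.097, adjusted p = 0.00821). It was 88.0, 87.8 and 94.9 cpm in sh4Control and 73.6, 65.9 and 68.2 cpm in shD3 #4, a log2 fold change of -0.38 (SE 0.066, adjusted p = 5.1e-05). Both pairs of groups were separate and both values were under the fold threshold, though without siControl replicate 2 the first was -0.59 and was called (adjusted p = 0.017). In shD3 #1 it was 74.0, 81.6 and 87.8 cpm against 82.6, 79.7 and 89.4 cpm in sh1Control, which overlapped (log2 fold change -0.035, 95% interval -0.20 to 0.13, adjusted p = 0.723). In the deep libraries it was 121, 117 and 125 cpm in sh1Control and 137, 139 and 134 cpm in shD3 #1, without overlap, with a log2 fold change of 0.20 (SE 0.042, adjusted p = 0.000962) under the fold threshold. Under siD3 #3, *OAS2* was thus called higher, *OAS3* lay below its control and *OAS1* overlapped it.

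Control cells of the 2 approaches were compared directly, as siControl against the mean of sh1Control and sh4Control. Of the 7 genes that passed the filter, 0 were called by edgeR, where 3.69% of 17137 genes were called higher in siControl and 4.76% lower. The number with an unadjusted p under 0.05 was 2, and DESeq2 also called 0. The 2 were *EIF2AK2*, at a log2 difference of -0.24 (SE 0.060, adjusted p = 0.0045), and *OAS3*, at -0.24 (SE 0.072, adjusted p = 0.0155), both lower in siControl and under the fold threshold. The differences of *IFIH1*, *RIGI*, *TLR3*, *OAS1* and *MAVS* lay between -0.040 and 0.070. Their 95% intervals ran from -0.38 to 0.34 for *IFIH1*, from -0.47 to 0.55 for *RIGI* and from -0.37 to 0.29 for *TLR3*. This comparison shares its control libraries with the knockdown comparisons.

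Whether the response differed between agents was tested in 1 fit of all 17 first libraries. The log2 fold change under siD3 #3 exceeded the mean of the 2 shRNA effects by 1.97 for *TLR3* (SE 0.24, adjusted p = 2.63e-06), by 1.10 for *RIGI* (SE 0.28, adjusted p = 0.00482) and by 0.89 for *IFIH1* (SE 0.21, adjusted p = 0.00311). The *TLR3* value sets siD3 #3 against the mean of 2 effects of opposite sign: against shD3 #4 alone the difference was 0.74 (adjusted p = 0.0436), and against shD3 #1 alone it was 3.21 (adjusted p = 4.78e-08). Against either shRNA alone the difference was 0.71 to 1.06 for *IFIH1* and 0.83 to 1.38 for *RIGI*. These differences rest on the first libraries, where the *IFIH1* effect of shD3 #1 was 0.44 (SE 0.17). In the deep libraries that effect was 0.85 (SE 0.12), beside 1.15 (SE 0.18) under siD3 #3, and the 2 were not tested against each other. *TLR3*, *RIGI* and *IFIH1* were the 3 of the 9 genes called higher, with 0 lower. Of 18672 genes, 9.43% were called higher and 7.12% lower. The *RIGI* difference lost the call without siControl replicate 1 (0.84, adjusted p = 0.0783). For *OAS2* the difference of 1.16 had a 95% interval of -1.11 to 3.44 and for *DHX58* that of 1.84 had one of -0.083 to 3.76, so at these counts neither a difference nor its absence was shown. For *OAS3*, *EIF2AK2*, *MAVS* and *OAS1* the differences from the mean lay between -0.26 and -0.019, with adjusted p from 0.076 to 0.956. Against shD3 #1 alone they were -0.43 (adjusted p = 0.00851), -0.32 (0.0167), -0.31 (0.0239) and 0.24 (0.396) in that order. Against shD3 #4 alone they were -0.089 (0.644), -0.050 (0.773), -0.054 (0.753) and -0.27 (0.350). All of these were under the fold threshold.

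The 2 shRNAs were set against each other in the same fit. The *TLR3* effect of shD3 #4 exceeded that of shD3 #1 by 2.47 (SE 0.28, adjusted p = 8.36e-07), and *TLR3* was the 1 gene of the 9 called, where 13.8% of 18672 genes were called higher and 12.1% lower. Differences of *OAS1* (0.51, SE 0.19, adjusted p = 0.0402), *OAS3* (-0.34, SE 0.11, adjusted p = 0.0217), *EIF2AK2* (-0.28, SE 0.096, adjusted p = 0.0274) and *MAVS* (-0.26, SE 0.098, adjusted p = 0.0444) passed the p threshold and not the fold threshold. For *IFIH1* (-0.35, 95% interval -0.83 to 0.12) and *RIGI* (-0.55, 95% interval -1.19 to 0.096) the adjusted p was 0.237 and 0.172. At their few counts *DHX58* (1.09, 95% interval -1.15 to 3.33, adjusted p = 0.455) and *OAS2* (0.30, 95% interval -1.74 to 2.33, adjusted p = 0.841) showed neither a difference nor its absence.

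**Figure D4:**
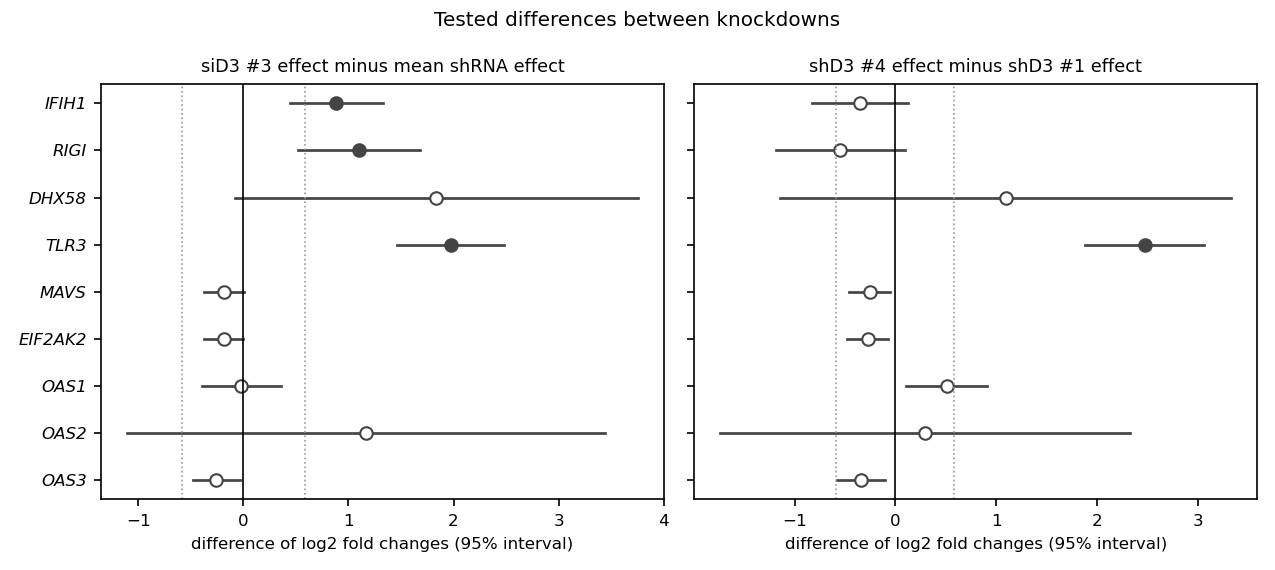
Difference of log2 fold changes (x axis, with its 95% interval as a line) between siD3 #3 and the mean of the shRNAs (left) and between shD3 #4 and shD3 #1 (right), filled where called, with dotted lines at the fold threshold. *TLR3* is filled in both panels, at 1.97 and 2.47, and *IFIH1* and *RIGI* in the left one.

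The genes around the sensors were read from 5 lists, each described by its counts and by its median log2 fold change. The median of all genes tested was -0.0061 in shD3 #1, -0.015 in deep shD3 #1, 0.0079 in shD3 #4 and 0.026 in siD3 #3. Of all genes tested, 14.5% were called higher and 14.6% lower in shD3 #1, and 15% and 14.1% in deep shD3 #1. The shares were 8% and 4.49% in shD3 #4, 12.5% and 9.42% in siD3 #3, and 3.69% and 4.76% between the controls. No list was tested against these shares. The signalling list of 25 genes holds the ubiquitin ligases, adaptors and kinases between the receptors and the interferon regulatory factors. In shD3 #1, 3 rose and 2 fell of 25 (median 0.24), and in the deep libraries 3 rose and 1 fell of 24 (median 0.19). *IKBKG*, the scaffold NEMO of the IκB kinase complex, rose from 9.13 ± 0.225 to 21.7 ± 2.11 cpm (SD, n = 3) in shD3 #1, at a log2 fold change of 1.27 (SE 0.093, adjusted p = 1.21e-08), and by 1.66 (SE 0.060) in the deep libraries. *UNC93B1*, the chaperone that carries TLR3 to endosomes, fell from 84.7 ± 1.58 to 35.1 ± 4.25 cpm, at -1.24 (SE 0.079, adjusted p = 2.5e-09), and in the deep libraries at -0.88 (SE 0.046). *TLR3* and *UNC93B1* thus fell in the same libraries. *IKBKG* and *UNC93B1* both have pseudogene copies, so their counts are uncertain where reads are shared. In siD3 #3, 4 rose and 0 fell of 25 (median 0.18), among them *CYLD*, a deubiquitinase that restrains RIG-I signalling, at 1.38 (SE 0.13, adjusted p = 0.000182), and *IKBKE*, a kinase of the interferon regulatory factors, at 0.72 (SE 0.13, adjusted p = 0.00418). In shD3 #4 edgeR called 0 of 25 (median -0.035), with 8 at an unadjusted p under 0.05 and 0 called by DESeq2.

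Of the 18 other double-stranded RNA-binding proteins and regulators, 6 rose and 2 fell under siD3 #3 (18 tested, median 0.080). *NLRP1*, an inflammasome sensor, had 0 and 3 counts in siControl and 48 to 74 in siD3 #3 (adjusted p = 0.000842). It passed the filter on low counts through siD3 #3, as did *ZBP1* (0 to 1 counts in siControl, 3 to 16 in siD3 #3). Such genes could only be called higher. *DHX9*, a nuclear helicase that resolves duplexes, fell from 416 ± 55.8 (SD, n = 2) to 241 ± 7.09 cpm (SD, n = 3), at -0.75 (SE 0.10, adjusted p = 0.0013). It was also the 1 gene of the list called in shD3 #1, at -0.61 (SE 0.056, adjusted p = 1.81e-07; 16 tested, median -0.12), a call lost without sh1Control replicate 1. EdgeR and DESeq2 both called 0 in shD3 #4 (16 tested) and in the deep libraries (17 tested), with 8 at an unadjusted p under 0.05 in each.

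Interferon mRNAs were at the edge of detection. *IFNB1* had at most 2 counts in any library, *IFNL1* and *IFNL2* at most 1, and *IFNL3*, a near copy of *IFNL2*, at most 2, and these 4 failed the filter in every comparison. Of the 14 genes of interferons and their receptor signalling 10 were tested. Under siD3 #3, 3 rose and 1 fell (median 0.42): *IRF1*, an interferon regulatory factor, was called at 1.26 (SE 0.13, adjusted p = 0.00039), and *IFNLR1*, a subunit of the type III interferon receptor, at -1.12 (SE 0.23, adjusted p = 0.00765). Without siControl replicate 2 this count of 4 was 1, and without siD3 #3 replicate 1 or 2 it was 2. In shD3 #1, 2 rose and 1 fell (median -0.0098): *IFNAR1* was at 0.72 (SE 0.069, adjusted p = 2.41e-07) and *IFNAR2*, the other subunit of the type I receptor, at -0.60 (SE 0.14, adjusted p = 0.00146). Without shD3 #1 replicate 3 the count of 3 was 1. In shD3 #4, *IRF9*, the DNA-binding part of ISGF3, was the 1 gene called, at 0.65 (SE 0.19, adjusted p = 0.00726; median 0.28), and the call was lost without shD3 #4 replicate 1. EdgeR and DESeq2 called 0 in the deep libraries, with 9 at an unadjusted p under 0.05 (median 0.15).

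Of 34 interferon-stimulated genes, 21 rose and 1 fell among the 31 tested under siD3 #3, and their median log2 fold change was 1.01, also with *XAF1* at its lower bound. Without siControl replicate 1 the 22 calls were 14. *XAF1*, a pro-apoptotic factor, had 0 counts in both siControl libraries and 8 to 18 in siD3 #3. It was at least 7.68-fold higher when siControl is set at 3 counts over the group. It passed the filter through siD3 #3, so it could only be called higher. More genes of this list passed the filter here than in the shRNA comparisons below. The 1 that fell was *USP18*, which dampens interferon receptor signalling, at -0.82 (SE 0.17, adjusted p = 0.00856). In shD3 #1, 7 rose and 3 fell of 28 (median 0.18), and in shD3 #4, 8 rose and 1 fell of 27 (median 0.23). In the deep libraries 7 rose and 4 fell of 28 (median 0.31). *LY6E* had 848 to 2923 counts in the first libraries but 0 to 1 in the deep ones, where it failed the filter. *BST2*, which tethers budding virus, was called in shD3 #1 at 2.67 (SE 0.37, adjusted p = 1.42e-05), with 3 to 5 counts in sh1Control and 13 to 25 in shD3 #1. It passed the filter through shD3 #1, so it too could only be called higher. *GBP1*, a guanylate-binding GTPase, was at -2.41 (SE 0.33, adjusted p = 1.14e-05) in shD3 #1 and at -2.21 (SE 0.21) in the deep libraries. In shD3 #4, *IFIT2* was at 1.02 (SE 0.16, adjusted p = 1.66e-05) and *HERC5*, the ligase that attaches ISG15, at -0.81 (SE 0.13, adjusted p = 1.45e-05). The control comparison called 1 of 27, *UBE2L6*, which encodes the E2 enzyme of ISG15, at 0.91 higher in siControl (SE 0.12, adjusted p = 1.96e-05).

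The list around eIF2α, with its kinases other than PKR and its downstream genes, held 10 genes, all tested. In siD3 #3, 3 rose and 0 fell (median 0.15), with *ATF3*, a stress-induced transcription factor, at 2.91 (SE 0.32, adjusted p = 0.000473) and *PPP1R15A*, the phosphatase subunit that reverses eIF2α phosphorylation, at 1.32 (SE 0.21, adjusted p = 0.00292). In shD3 #1, 2 rose and 1 fell (median 0.27), with *ATF3* at 1.97 (SE 0.21, adjusted p = 1.1e-06) and *EIF2AK3*, the eIF2α kinase of the endoplasmic reticulum, at -0.71 (SE 0.066, adjusted p = 1.73e-07). In the deep libraries 1 gene was called higher and 1 lower (median 0.030). *ATF3* was at 1.73 (SE 0.063) there, and *ATF4*, the transcription factor translated when eIF2α is phosphorylated, at -0.65 (SE 0.045, adjusted p = 1.16e-08). Like *RIGI*, *ATF3* differed in level between the 2 tables, with a median of 2.23 cpm in the first libraries and 118 cpm in the deep ones. In shD3 #4 the 1 call was *TRIB3*, a target of ATF4, at -0.59 (SE 0.073, adjusted p = 4.44e-07; median -0.085), lost without sh4Control replicate 1 or 2 or shD3 #4 replicate 2. *EIF2AK2* itself was under the fold threshold in all of these comparisons. Of the 5 lists, the control comparison called 0 in the 4 others than the interferon-stimulated genes, by edgeR and by DESeq2, with 5 to 12 genes each at an unadjusted p under 0.05. Without siControl replicate 1 it called 1 gene each of the interferon and the other double-stranded RNA-binding lists and 4 of the interferon-stimulated genes, and without sh1Control replicate 2 it called 2 of the latter.

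**Figure D5:**
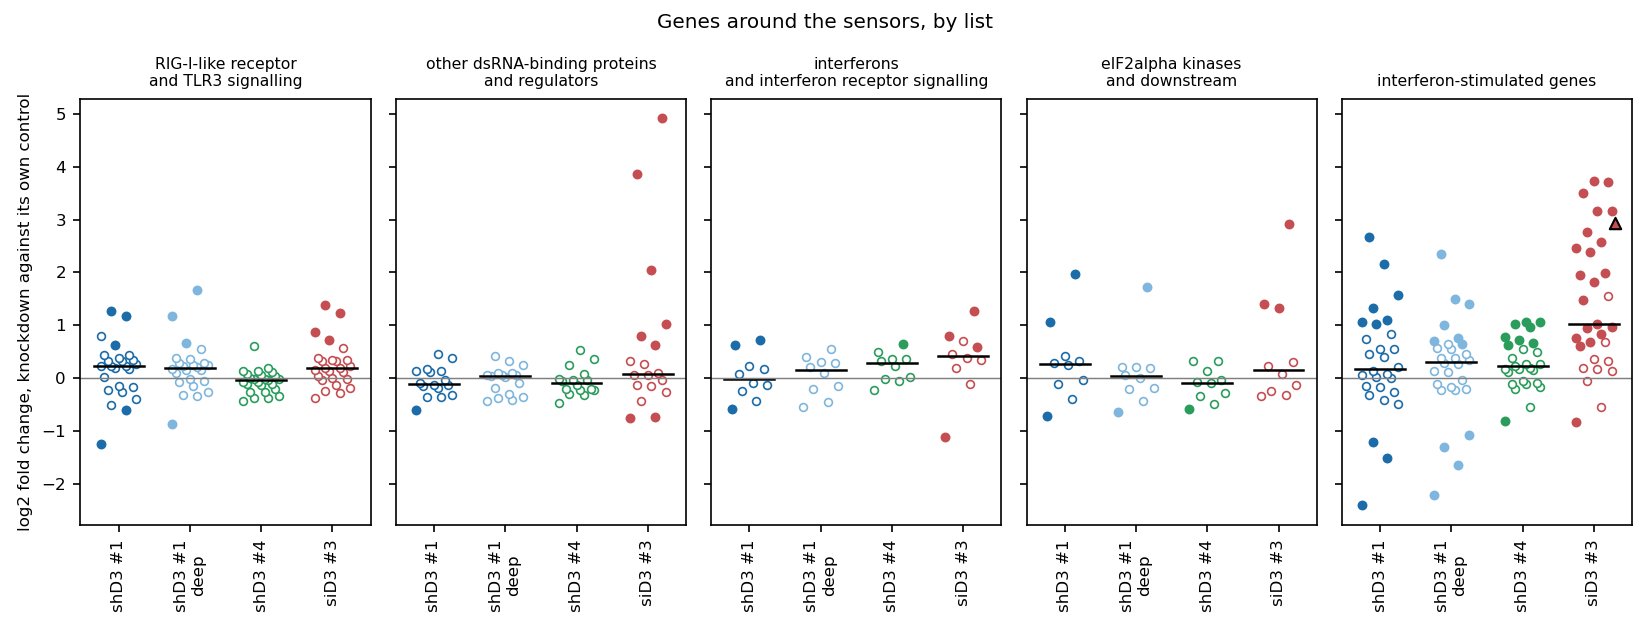
Log2 fold change (y axis) of the genes tested in each of 5 lists for the 4 knockdown comparisons, filled where called, with a line at the median and *XAF1* as a triangle at its lower bound. The interferon-stimulated genes under siD3 #3 have the highest median, 1.01, of the 20 shown.

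The genes whose levels followed each gene of the set most closely were named from the Pearson correlation of log2 cpm over the 17 first libraries, as a description of libraries that share 6 groups. *TLR3* was followed most closely by *CTSS*, which encodes cathepsin S of the endosomes and lysosomes (r = 0.966), among 18671 genes. *RIGI* was followed by the lncRNA *PURPL* (r = 0.966), *IFIH1* by *LINC02223* (r = 0.943) and *MAVS* by *LINC00963* (r = 0.973). For *EIF2AK2* the gene was *B3GALT1* (r = 0.949), for *OAS1* *ADH6* (r = 0.930), for *OAS3* *TRIM28* (r = 0.934) and for *OAS2* *POMGNT1* (r = 0.938). The closest match of *DHX58*, the gene ENSG00000285816, was the weakest of the 9 (r = 0.810). In no case was the most similar gene another gene of the set.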

How the data were processed

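The authors removed ribosomal RNA, used STAR 2.7.10a for both alignment (to GRCh38.p14) and counting (the submitters' processing notes name Trimmomatic 0.40 too), and deposited 2 tables of raw counts per gene, without normalisation. Their paper names a RefSeq annotation, and the first table lists Ensembl identifiers, of which 61757 matched GENCODE 44. No column was left out, and no 2 libraries were identical.

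Counts were tested with edgeR 4.0.16 (R 4.3.3): TMM, filterByExpr, the quasi-likelihood test, and Benjamini-Hochberg adjustment over all genes tested. Each knockdown was fitted with its own control, the control comparison on the 3 control groups, and differences between knockdowns on all 17 first libraries. Calls needed an adjusted p under 0.05 and a 1.5-fold change. The scripts were tested on simulated counts. Alternatives were DESeq2 1.42.0, its size factors, looser filters, no fold threshold, a replicate block, 1 common fit and each library left out. The differences from each shRNA alone were added after seeing the data. The genes and lists were chosen with earlier results of these data known. From each list the text names the highest and the lowest called gene without overlap between groups in each comparison. Some items of the lists are not reported here. Figures used matplotlib.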

Additional observations from a re-analysis of the deposited data

Results flagged for a closer look

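Differences between the knockdowns were tested by an interaction in 1 fit of all 17 first libraries, and those with an adjusted p under 0.05 are listed as values. Between siD3 #3 and the mean of the shRNAs, the log2 fold change of *THUMPD3* itself differed by -1.21 (SE 0.096, adjusted p = 3.98e-09), that of *TLR3* by 1.97 (0.74 against shD3 #4 alone and 3.21 against shD3 #1 alone), that of *RIGI* by 1.10 and that of *IFIH1* by 0.89. Between shD3 #4 and shD3 #1 it differed by -0.70 for *THUMPD3* (SE 0.10, adjusted p = 1.17e-05), 2.47 for *TLR3*, 0.51 for *OAS1*, -0.34 for *OAS3*, -0.28 for *EIF2AK2* and -0.26 for *MAVS*. *TLR3* had the largest difference of the 9 genes in both tests, and it was the only one of the 9 called in opposite directions by 2 knockdowns. The deep libraries were not in this fit. In them the *IFIH1* effect of shD3 #1 was 0.85, against 0.44 in the first libraries.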

How the results depend on the processing

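Over all alternatives, 884 log2 values of the 9 genes were set against the main ones. Of these, 827 kept their direction and their side of the thresholds, 31 changed sign without being called on either side, 23 gained a call, 3 lost one, and none was called in the opposite direction. The 884 include the setting with no fold threshold, which reuses the main fits, so there values cannot change and calls can only be gained. Most of the 23 came from it. With no fold threshold the number of the 9 genes called was 6 in shD3 #1, 4 in shD3 #4, 7 in the deep libraries, 2 between the controls and 5 between the 2 shRNAs. When libraries were left out in turn, the number called in shD3 #1 was 1 to 2 and that between the shRNAs 1 to 2. The 1 came without sh1Control replicate 1 (*RIGI*, 0.57). The 2 between the shRNAs came without shD3 #1 replicate 3 (*OAS1*, 0.59) or sh4Control replicate 2 (*DHX58*, 3.35, adjusted p = 0.0385, against 1.09 with it). The other calls lost were *OAS2* in siD3 #3 without siControl replicate 2 (2.74, adjusted p = 0.0735) and *RIGI* in the difference without siControl replicate 1. With these libraries removed fewer samples were fitted.

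The count of all genes called in siControl against the shRNA controls was 1448, and 942 against sh4Control alone. For siD3 #3 minus the shRNA effects it was 3089, and 4734 against shD3 #1 alone. With no fold threshold the counts were 9295 against 4785 in shD3 #1, 6725 against 2061 in shD3 #4, 5622 against 3739 in siD3 #3, 11741 against 5461 in the deep libraries, 5579 against 1448 between the controls, 5433 against 3089 for siD3 #3 minus the shRNAs and 7358 against 4841 between the shRNAs.

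The labels number the replicates, but deviations from group means correlated by -0.108 to 0.142 between same-numbered libraries, so the numbers were not taken as pairs. With the replicate block the number of the 9 genes called was 5 in siD3 #3. There *DHX58*, which passed the filter through siD3 #3 and could only be called higher, was called at 2.01 (adjusted p = 0.0212). In the other comparisons the number was the same as without the block (2 in shD3 #1, 1 in shD3 #4, 4 deep, 0 between controls, 3 and 1 for the differences).

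*OAS2* and *DHX58* were limited by their few counts, and siControl by its 2 libraries. Leaving 1 of these out makes the other stand for its group, assumed to vary like siD3 #3.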
